A study of Mus musculus with 4 samples.

Results

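Tip-like endothelial cells that carry transcripts of Apln or Kit made up 688 of the 6867 endothelial cells (10.0%), and of the 21581 cells of all types, found in the hearts of young mice whose mothers had eaten a high-fibre or a control diet. They were chosen from single-cell RNA counts. A barcode was kept with at least 1000 UMIs (unique molecular identifiers, which count captured transcripts) and at most 20% of them from mitochondrial genes. It was called endothelial with at least 4 UMIs over Pecam1, Cdh5 and Egfl7, at most 3 over fibroblast, macrophage and pericyte genes, and at most 1 over the endocardial genes Npr3 and Cytl1. It was called tip-like with at least 5 UMIs over Apln, Kit, Mest, Pcdh17 and Trp53i11, of which at least 1 was of Apln or Kit. The levels of these 16 genes therefore describe the choice of the cells and were given no test.

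The hearts came from offspring aged 6 weeks, in 2 groups of 2 libraries. The high_fibre libraries were from offspring of dams fed a diet high in resistant starch during pregnancy and lactation, and the control_diet libraries from offspring of dams fed a diet low in resistant starch. Both groups ate the same standard chow after 3 weeks of age, and no mutation, transgene or other treatment is given for either group. Hearts were digested with collagenase and dispase, and live, metabolically active, nucleated cells were sorted, so all shares are shares of sorted cells. Neither the number of animals per library nor whether libraries are separate animals is given in the labels. P-values thus set a difference against the spread among these 4 libraries only, and that spread may be technical.

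New capillaries grow as sprouts led by a tip cell, which migrates, degrades and rebuilds matrix and follows guidance cues, while the stalk cells behind it divide. Apelin, the peptide encoded by Apln, is secreted by sprouting endothelium and acts on the receptor encoded by Aplnr. Kit encodes the receptor for stem cell factor, the product of Kitl, and is used in blood progenitors and mast cells as well as in some endothelium. In the adult heart most endothelial cells are quiescent capillary cells that take up fatty acids for the muscle.

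The libraries held 27577599 to 69600492 UMIs in all, and 2558 to 7380 kept barcodes. In the order high_fibre 1, high_fibre 2, control_diet 1 and control_diet 2, which is kept in every list of 4 values, the endothelial cells numbered 1642, 2277, 1745 and 1203. Libraries shared barcodes, with 463 to 747 in common between any pair, and control_diet 2 stood apart because 27.0% of its barcodes were also found in another library. Of the tip-like cells, 1, 0, 4 and 48 had a barcode found in another library, but in 0 of these was the other copy the deeper one, and 8 of the 688 were kept in another library too. Barcodes found in another library had median depths of 656, 685, 630 and 17333 UMIs. In control_diet 2, leaving them out therefore also left out deep barcodes. Results are given with and without such barcodes where the call or the size differs. Doublet scores marked 10, 10, 5 and 5 of the tip-like cells.

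The 5 marker genes, which chose the cells, differed in how far their levels lay apart between the classes. Apln, at X:48025146-48034853 on the minus strand of GRCm38, was at 206, 193, 225 and 190 CPM (UMIs scaled to a normalised total of 1e+06) in the summed UMIs of tip-like cells, against 3.42, 6.06, 3.84 and 5.92 CPM in other endothelial cells. Kit, at 5:75574916-75656722 on the plus strand, was at 158, 132, 128 and 130 CPM in tip-like cells, against 9.36, 7.63, 7.46 and 9.41 CPM in the others. At least 1 UMI of either gene was required of each tip-like cell, so their high levels in all 4 tip-like sums follow from the gate. Mest, an imprinted gene expressed from the paternal copy, was at 191 ± 30.4 CPM in tip-like cells and 43.3 ± 5.98 CPM in the others (SD, n = 4 libraries). It overlaps Mir335 on its own strand and Copg2 on the other. Pcdh17, a protocadherin, was at 403 ± 63.6 CPM in tip-like cells and 169 ± 13.4 CPM in the others, and Trp53i11, a p53-inducible gene, at 492 ± 13.1 CPM in tip-like cells and 183 ± 19 CPM in the others (SD, n = 4 libraries each). The last 2 were thus also common outside the tip-like cells, and 823 endothelial cells reached 5 marker UMIs with none from Apln or Kit.

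In single cells, an Apln UMI was found in 61.2 ± 1.89% of tip-like cells and 2.26 ± 0.535% of other endothelial cells, and a Kit UMI in 68.2 ± 2.91% of tip-like cells and 4.19 ± 0.676% of other endothelial cells (SD, n = 4 libraries). In fibroblasts of the same libraries, which should lack both, an Apln UMI was found in 0.399% and a Kit UMI in 0.226% of cells on average, at median depths of 12103 to 16290 UMIs. Median depth was 7501 to 9339 UMIs in tip-like and 4511 to 5781 UMIs in other endothelial cells, so a threshold in UMIs favoured deep cells. Transcripts of both were seen in 202 of the tip-like cells (29.4%), Apln without Kit in 220 (32.0%) and Kit without Apln in 266 (38.7%). The markers formed no sharp edge at the threshold. Just inside it, 91 cells had 5 marker UMIs, and just outside it 98 had 4 with at least 1 of Apln or Kit, while the median tip-like cell had 10, 8, 11 and 11.

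Tip-like cells were a smaller part of the endothelium in both high_fibre libraries than in either control_diet library. They were 8.04% (132 of 1642; exact 95% interval 6.77 to 9.46%) and 7.55% (172 of 2277; 6.50 to 8.72%) of endothelial cells in the high_fibre libraries, against 11.9% (207 of 1745; 10.4 to 13.5%) and 14.7% (177 of 1203; 12.8 to 16.8%) in the control_diet libraries. The intervals of the 2 groups did not overlap, but they cover counting error only. The mean was 7.80 ± 0.343% in high_fibre and 13.3 ± 2.02% in control_diet hearts (SD, n = 2 each), a ratio of 0.587, and the two-sided exact permutation p was 0.333, the smallest that 2 libraries against 2 can give. The difference was larger than the spread within each group, and this test cannot reach 0.05 with 2 libraries a group.

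The share was also counted at a fixed depth, without shared barcodes, over all kept barcodes and by sex, and its size varied between these counts. With every endothelial cell thinned to 3000 UMIs and the gate lowered to 3 marker UMIs, tip-like cells were 6.04% and 5.50% in high_fibre libraries, against 7.55% and 9.40% in control_diet libraries, after 722 high_fibre and 315 control_diet cells shallower than 3000 UMIs had been left out. At this depth the counting intervals of high_fibre 1 (4.82 to 7.46%) and control_diet 1 (6.28 to 8.98%) overlapped. Without barcodes found in another library, the mean was 7.81 ± 0.299% in high_fibre and 11.7 ± 0.116% in control_diet hearts (SD, n = 2 each), a ratio of 0.670 against 0.587 with all barcodes. As a share of all kept barcodes, tip-like cells were 2.21% and 2.33% in high_fibre libraries and 3.66% and 6.92% in control_diet libraries. Libraries held cells of both sexes, told apart by Xist and Y-linked UMIs. Among female cells the share was 3.3% and 8.29% in high_fibre and 11.8% and 13.5% in control_diet libraries, and among male cells 12.2% and 7.66% in high_fibre and 13.8% and 20% in control_diet libraries. In high_fibre 1, 87.5% of the sexed tip-like cells were male, against 63.2% of the other endothelial cells, a gap not seen to this extent in the other libraries, where the male shares of tip-like and other cells were 39.1% and 41.2%, 19.8% and 17.1%, and 53.9% and 42.2%.

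**Figure D1:**
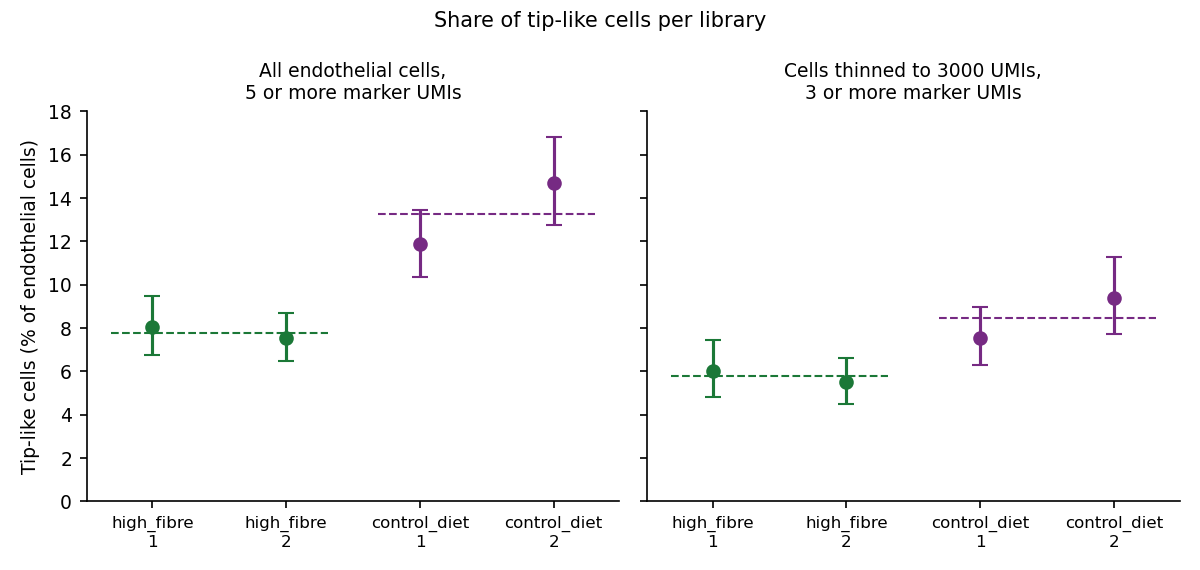
Tip-like cells as a percent of endothelial cells in each library (points, with exact 95% binomial intervals for counting error; dashed lines are group means), for all UMIs on the left and for cells thinned to 3000 UMIs on the right. Both high_fibre libraries lie below both control_diet libraries in each panel, at 8.04% and 7.55% against 11.9% and 14.7% on the left.

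Compared with the other endothelial cells of the same libraries, tip-like cells held more RNA of sprouting, basement membrane, ribosomal and cell cycle genes and less of arterial, lymphatic and most capillary genes. UMIs were summed per library and class. Genes outside the gate were tested if their mean over the sums of both classes was at least 10 CPM. A gene could thus enter through its level in either class. The test was edgeR's quasi-likelihood test, with the library as a block and Benjamini-Hochberg adjustment over all 8010 tested genes at 0.05. Of these, 2316 were called (28.9%), 1198 higher (15.0%) and 1118 lower (14.0%) in tip-like cells. These shares are the background for the list counts of this comparison below. At least 2-fold differences were fewer, with 88 genes higher (1.10%) and 104 lower (1.30%). Of the called genes, 2161 had the same direction in 4 of 4 libraries. The marker genes were named with these cells in view, so the test measures how evenly the libraries show a difference and is not independent evidence of a separate cell type. When other endothelial cells were drawn to the depth of the tip-like cells, 1281 genes were called. This draw kept 131, 167, 203 and 155 other endothelial cells, so a call lost at matched depth cannot be assigned to depth alone. Without barcodes found in another library, 1939 genes were called.

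Of 24 genes tied to tip cells in sprouting vessels, 22 were tested, 14 were higher and 3 lower in tip-like cells, with a median log2 fold of 0.75 beside -0.01 over all tested genes. Adm, at 7:110627661-110629820, encodes adrenomedullin, a peptide that acts on vessel growth and permeability. It was at 149, 109, 182 and 140 CPM in tip-like cells, against 22.9, 27.6, 36.6 and 30.3 CPM in the others, a log2 fold of 2.29 (SE 0.0851, edgeR adjusted p = 2.12e-20). Pgf, placental growth factor, a ligand of the VEGF receptor Flt1, was at 57.0, 30.8, 55.0 and 26.2 CPM in tip-like cells, against 10.0, 13.0, 12.8 and 4.25 CPM in the others. Pgf and Adm had no overlap between the classes. Fscn1, which bundles actin in filopodia, was at 380 ± 54.9 CPM in tip-like and 131 ± 11 CPM in other endothelial cells (SD, n = 4 libraries; log2 fold 1.53). Nrp2, a co-receptor for VEGF and semaphorins, was at 635 ± 10.6 CPM in tip-like and 308 ± 16.8 CPM in other cells, and Nid2, a basement membrane nidogen, at 78.3 ± 23.3 CPM in tip-like and 34.1 ± 5.46 CPM in other cells (SD, n = 4 libraries each). Angpt2, a TIE2 ligand released by activated endothelium, rose by a log2 fold of 1.17.

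The fit to the name was uneven among genes that define tip cells in the mouse retina. Esm1, a proteoglycan and a retinal tip cell marker, was called higher with a log2 fold of 1.05 (SE 0.279, edgeR adjusted p = 0.0257), but its levels of 12.1, 21.7, 42.5 and 24.8 CPM in tip-like cells overlapped the 14.7, 12.7, 12.8 and 10.8 CPM in the others. The Esm1 call was lost without high_fibre replicate 2 (adjusted p = 0.0798), without control_diet replicate 2 (0.156) and at matched depth (0.333), all by edgeR. An Esm1 UMI was found in 10.3% of tip-like, 3.49% of other endothelial and 0.428% of fibroblast cells on average. Dll4, the Notch ligand of tip cells, was not called, at a log2 fold of 0.17 (edgeR adjusted p = 0.0947), but was called higher at matched depth (0.49, adjusted p = 0.00145). Cxcr4, the receptor of Cxcl12, was not called at 0.36 (adjusted p = 0.137) and was called higher, by the same test, without barcodes found in another library (0.49). Kdr, the main VEGF receptor, was at 1009, 1066, 1050 and 1125 CPM in tip-like cells, against 1084, 1030, 1065 and 1109 CPM in the others, with a log2 fold of -0.01 whose sign changed with the processing. Ramp3, Igfbp3 and Unc5b, also on the list, were lower in tip-like cells, Igfbp3 by a log2 fold of -0.84. The name tip-like thus rests on the marker genes and part of this list. As given below, 7 of 12 axon guidance genes were lower and cell cycle genes were mostly higher. The background above describes guidance for tip cells and division for stalk cells.

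The remaining signalling genes were mostly lower in tip-like cells. Of 17 tested genes of apelin, KIT, TIE, BMP and FGF signalling, 13 were lower and 2 higher, with a median log2 fold of -0.48. Aplnr was called higher at 0.18 against all other endothelial cells and lower at -0.20 against those without arterial, venous and lymphatic markers, so its direction depends on the cells compared. Kitl was at 829, 882, 826 and 946 CPM in tip-like cells, against 1038, 986, 1056 and 1103 CPM in the others, a log2 fold of -0.27 that was not called at matched depth (adjusted p = 0.233, edgeR). Fgfr3, an FGF receptor, fell by 2.15 and Smad6, an inhibitor of BMP signalling, by 2.00 on the log2 scale, and Acvrl1, the BMP receptor ALK1, fell by 0.91. Of 17 VEGF and Notch genes, 8 were lower and 2 higher, beside 14.0% lower and 15.0% higher of all tested genes. Against cells without arterial, venous and lymphatic markers, 5 of 16 were lower and 3 higher, with a median log2 fold of -0.08. Flt1, a decoy-type VEGF receptor, was at 603, 657, 478 and 586 CPM in tip-like cells, against 1148, 984, 971 and 994 CPM in the others, with no overlap, while the Notch ligand Jag1 fell by 1.57 and the Notch target Hey1 by 2.26 on the log2 scale. Hey1 is also on the list of arterial genes and was left out of the comparison with cells lacking these markers. Vegfc, the lymphatic growth factor, fell by 1.74 against all other endothelial cells, but was higher by 0.41 against those without arterial, venous and lymphatic markers.

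Matrix genes moved in both directions, beside 15.0% of all tested genes called higher and 14.0% lower. Of 13 tested basement membrane genes, 8 were higher and 3 lower, with a median log2 fold of 0.40. Col4a1, a chain of the main basement membrane collagen, was at 2269, 2163, 2400 and 2429 CPM in tip-like cells, against 1421, 1333, 1548 and 1549 CPM in the others (log2 fold 0.66, SE 0.0281, edgeR adjusted p = 8.76e-22). Col15a1 rose by 1.04 and the laminin chain Lama4 by 0.69, while Lama5, another laminin chain, fell by 1.26. Fn1, fibronectin, fell by 2.40, but by 0.36 and without a call against cells lacking arterial, venous and lymphatic markers (adjusted p = 0.178, edgeR). Of 12 genes of collagen processing and proteolysis 4 were higher, among them Adam19 (1.17) and the membrane protease Mmp14 (0.64), and 4 were lower. Of 16 junction, integrin and protocadherin genes 9 were higher, led by Mcam (0.91) and the tight junction gene Cldn5 (0.66), and 3 were lower. Of 12 axon guidance genes 7 were lower and 1 higher.

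**Figure D2:**
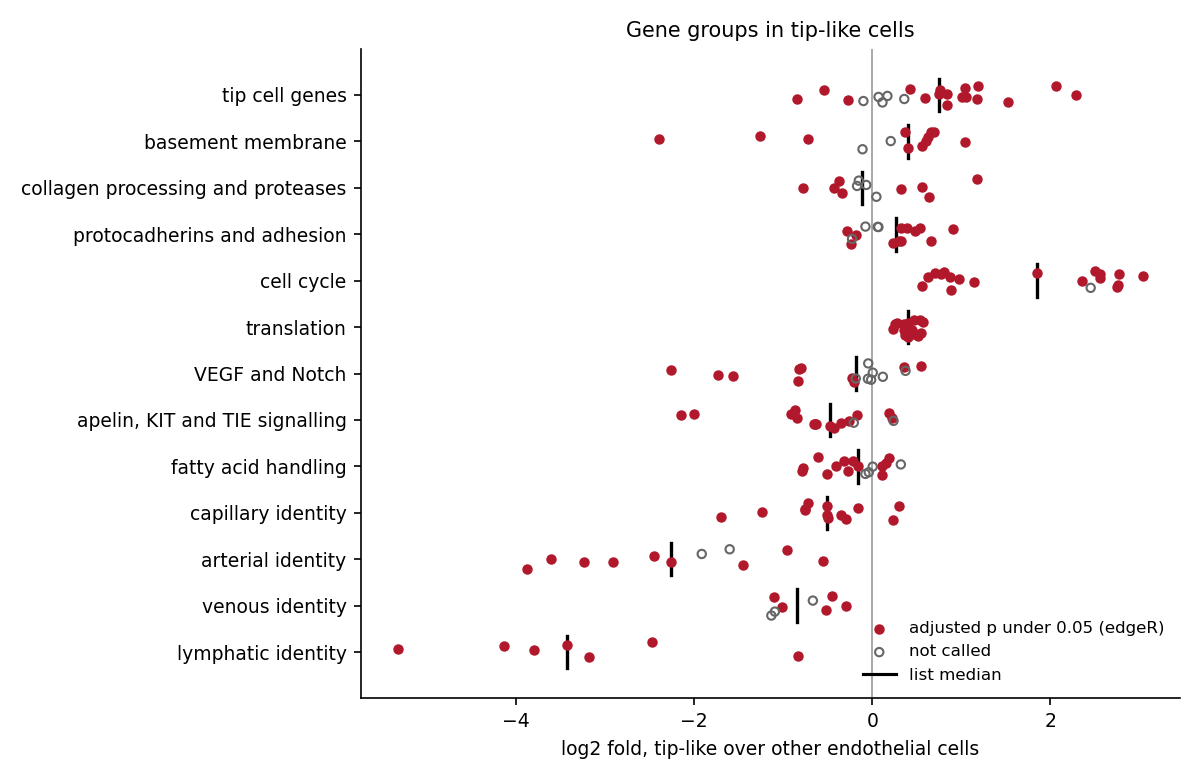
Log2 fold of tip-like over other endothelial cells for each tested gene of 13 lists (filled points, adjusted p under 0.05 by edgeR; open points, not called; bars, list medians). Tip cell, cell cycle and translation genes lie mostly right of 0, with medians of 0.75, 1.85 and 0.40, and arterial and lymphatic genes lie left of it, with medians of -2.26 and -3.44.

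Genes of vessel identity were lower in tip-like cells. Of 11 tested arterial genes 9 were lower and 0 higher (edgeR, with 11 of 11 below 0), with a median log2 fold of -2.26, and of 7 lymphatic genes 7 were lower, with a median of -3.44. Fbln5, an elastic fibre gene of arteries at 12:101746565-101819055, was at 1.73, 6.30, 3.00 and 8.42 CPM in tip-like cells, against 81.6, 76.9, 69.4 and 78.7 CPM in the others (log2 fold -3.88). The arterial genes Sema3g, Alpl and Stmn2 fell by 3.24, 2.91 and 2.46, and the lymphatic hyaluronan receptor Lyve1 by 3.19. Lyve1 and the lymphatic gene Mmrn1 were called, but lost their calls when single libraries were left out, with adjusted p by edgeR up to 0.157 for Lyve1 and 0.105 for Mmrn1. Of 8 venous genes 5 were lower, including the venous transcription factor Nr2f2 (-1.11). Prss23, a serine protease, fell by 2.37, but was not called with 4 or more marker UMIs (adjusted p = 0.111) or without control_diet replicate 2 (0.0584), both by edgeR, and Nepn, nephrocan, fell by 1.72. Fewer cells of a type and less RNA per cell cannot be told apart in these sums: 0, 3, 1 and 0 tip-like cells had at least 2 UMIs of Prox1, Lyve1 and Mmrn1, against 37, 57, 37 and 12 of the other endothelial cells. Against the 2720 other endothelial cells without arterial, venous and lymphatic marker UMIs, a choice that itself removes these genes, 1851 genes were called.

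Capillary and metabolic genes were lower by less against all other endothelial cells. Of 13 capillary genes 11 were lower and 2 higher (median log2 fold -0.51). Against cells without arterial, venous and lymphatic markers, 9 of 13 were lower and 0 higher, with a median of -0.71. The size thus depends on the cells compared. Car4, a carbonic anhydrase on the surface of capillary endothelium, was at 276, 290, 328 and 285 CPM in tip-like cells, against 433, 384, 447 and 412 CPM in the others, with no overlap. Cxcl12, the ligand of Cxcr4, fell by 1.24 and Slc6a6, a taurine transporter, by 1.7. Of 17 genes of fatty acid handling, 9 were lower and 4 higher, with Lpl, lipoprotein lipase, at -0.51. Against cells without vessel markers, 10 of the 17 were lower and 0 higher. Fabp4, a fatty acid binding protein, was at 21508, 23069, 19688 and 21392 CPM in tip-like cells, against 25093, 25881, 23318 and 24867 CPM in the others, a small difference (log2 fold -0.21) that was not called at matched depth (adjusted p = 0.295, edgeR).

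Cell cycle and growth genes were higher in tip-like cells. Of 30 cell cycle genes, 19 were tested and 18 were higher and 0 lower (edgeR), with a median log2 fold of 1.85. The filter used both classes, so genes low in other endothelial cells, such as Mki67, were tested through their tip-like levels. Without the filter 30 of 30 were called higher, with a median of 2.15. The size was smaller in the depth alternatives. At matched depth 8 of 20 tested genes were higher with a median of 0.81. With cells thinned to 3000 UMIs and a gate of 3 marker UMIs, 3 of 11 were higher with a median of 0.56. That gate left 80, 103, 116 and 103 tip-like cells. Both fits used fewer cells, so depth and cell number cannot be told apart in the lost calls. Without barcodes found in another library, which in control_diet 2 were deep, 12 of 15 tested genes were higher with a median of 0.89. Mki67, a marker of dividing cells, was at 38.0, 16.8, 63.4 and 24.8 CPM in tip-like cells, against 6.45, 2.76, 5.86 and 2.43 CPM in the others. Cells with at least 2 UMIs over 14 cell cycle genes were 33.3%, 21.5%, 31.9% and 32.2% of tip-like cells, against 10.2%, 10.4%, 11.5% and 13.6% of other endothelial cells. The difference was 18.3 ± 5.12 points (SD, n = 4 libraries), in the same direction in 4 of 4, and the exact sign-flip p was 0.125, the smallest that 4 libraries allow. In cells thinned to 3000 UMIs the shares were 10.9 ± 2.12% of tip-like and 3.87 ± 0.985% of other endothelial cells (SD, n = 4 libraries). An Mki67 UMI was found in 4.18% of tip-like and 0.399% of other endothelial cells on average, beside 0.575% of the deeper fibroblasts, which can also divide.

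**Figure D3:**
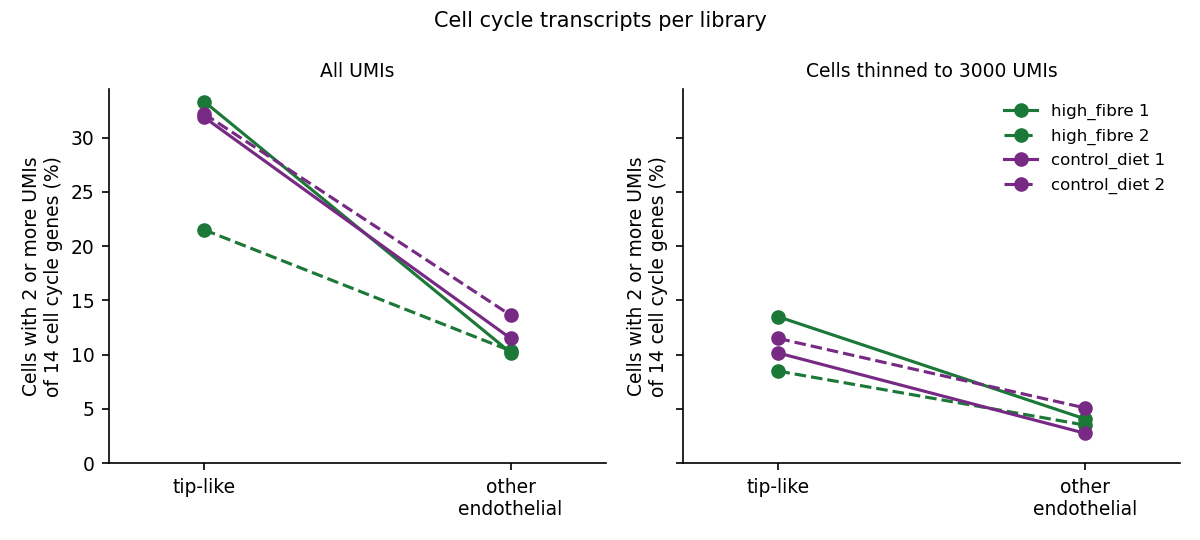
Percent of cells with at least 2 UMIs over 14 cell cycle genes, in tip-like and other endothelial cells of each library (joined points), for all UMIs on the left and for cells thinned to 3000 UMIs on the right. The share is higher in tip-like cells in 4 of 4 libraries in both panels, with means of 29.7% against 11.4% on the left and 10.9% against 3.87% on the right.

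All 20 of the 20 tested translation genes, which encode ribosomal proteins, translation factors and nucleolar proteins, were higher in tip-like cells, with a median log2 fold of 0.40, and 17 of 20 were higher at matched depth (median 0.22). Eef1a1, elongation factor 1A, was at 4646, 4142, 5069 and 4279 CPM in tip-like cells, against 3195, 2985, 3541 and 3018 CPM in the others. With cells of 2 or more cell cycle UMIs left out of both classes, 20 of 20 translation genes and 14 of 22 tip cell genes were still called higher. Odc1, the first enzyme of polyamine synthesis, was at 124, 118, 117 and 135 CPM in tip-like cells, against 40.5, 36.8, 26.8 and 39.4 CPM in the others (log2 fold 1.80, SE 0.0816). Mycn, a MYC family transcription factor, was at 30.2, 63.7, 82.4 and 98.0 CPM in tip-like cells, against 19.5, 25.6, 31.6 and 38.1 CPM in the others. The classes did not overlap for Odc1, and for Mycn the lowest tip-like value, in high_fibre 1, lay within the range of the others. Of 12 heat shock genes 8 were higher and 0 lower (edgeR), but 3 at matched depth.

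Tip-like cells with both Apln and Kit UMIs had cell cycle UMIs more often than those with 1 of them when all UMIs were used. At least 2 cell cycle UMIs were found in 43.1 ± 5.16% of cells with both, 21.8 ± 3.90% with Apln alone and 26.2 ± 6.78% with Kit alone, and after thinning to 3000 UMIs in 16.8 ± 5.45%, 9.02 ± 1.35% and 7.92 ± 2.75% (SD, n = 4 libraries). Cells with both had the highest share in 4 of 4 libraries with all UMIs, but not in control_diet 1 after thinning, at 9.84% with both, 9.23% with Apln alone and 11.3% with Kit alone. This split was made after the values were seen and was not tested. Between cells with Apln alone and cells with Kit alone, 5 of 6236 genes were called (0.0802%, edgeR with the library as a block). Ankrd37, a hypoxia-induced gene, was at 89.5, 113, 66.7 and 88.3 CPM in cells with Apln alone, against 31.2, 64.7, 26.4 and 44.6 CPM in cells with Kit alone (log2 fold 1.10, edgeR adjusted p = 0.0227). Malat1 (-0.22), Bbs9 (-1.67), Jun (-0.38) and Kmt2a (-0.69) were lower in cells with Apln alone.

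Among genes of at least 30 CPM on average, Ift122 had the largest rise after Adm. It encodes a protein of intraflagellar transport in cilia, lies at 6:115853470-115926699, and was at 220, 146, 203 and 201 CPM in tip-like cells, against 46.1, 35.5, 50.8 and 51.3 CPM in the others (log2 fold 2.06, SE 0.0620, edgeR adjusted p = 8.84e-27). Myh10, a non-muscle myosin, rose by 1.44 and Arl4c, a small GTPase, by 1.42. Tmem176b and Tmem176a, a pair of membrane protein genes that overlap on opposite strands of chromosome 6, rose by 1.59 and 1.3, and whether counting separated the strands is not given in the sources used here. Tnfaip8l1 (1.71), Chchd10 (1.36), a mitochondrial protein, and Il16 (1.22), a cytokine, made up the rest of the 12 genes that rose most. Odc1, Il16 and Slc6a6 hold small annotated genes on their own strand, and Adm, Chchd10, Il16, Prss23 and Tnfaip8l1 overlap genes on the other strand. Across the 8 sums, the log2 levels most like those of Apln were those of Tmem176b (Pearson r 0.994), Kit (0.994), Myl6 (0.993), Nrp2 (0.993) and Rps26 (0.992), a description over sums that fall into the 2 classes. Apln and Kit both chose the cells, so their likeness follows from the gate.

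**Figure D4:**
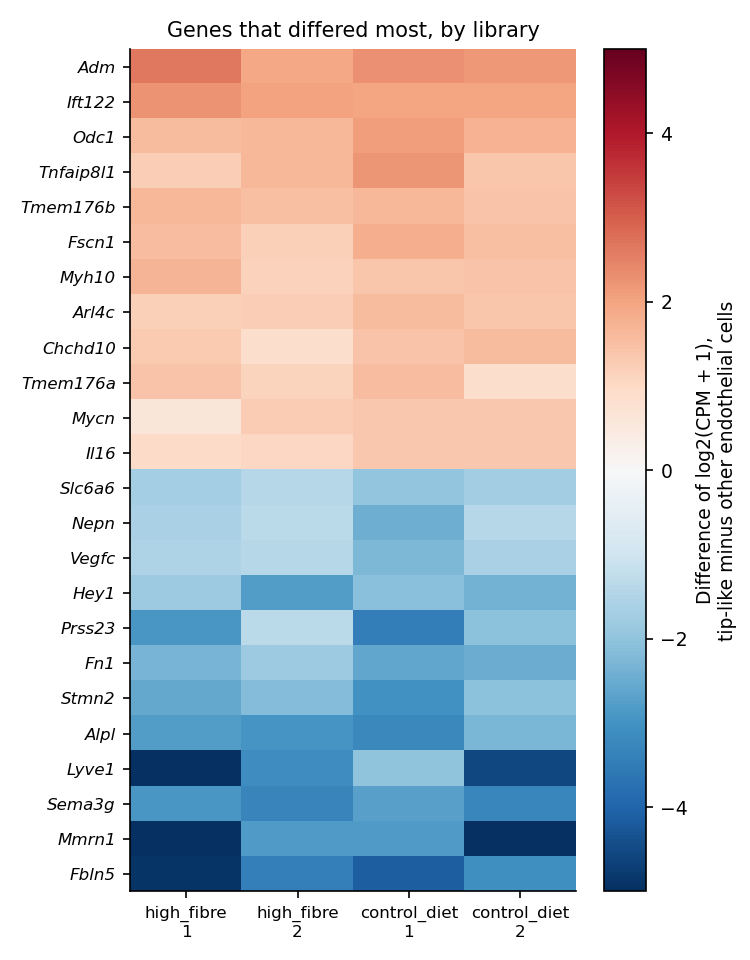
Difference of log2(CPM + 1) between tip-like and other endothelial cells of the same library (colour; red, higher in tip-like cells) for the 12 called genes that rose most and the 12 that fell most. Each gene has the same direction in 4 of 4 libraries, with Adm and Ift122 at the top and Fbln5 at the bottom.

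Markers of other cell types were at low and mostly lower levels in tip-like cells. The gate itself sets part of this. The macrophage, fibroblast and pericyte sums include 3, 1 and 2 genes that it capped together at 3 UMIs per cell. Tip-like cells were deeper, so the same cap allowed them a lower CPM of these genes. Macrophage markers summed to 148 to 334 CPM in tip-like and 154 to 637 CPM in other endothelial cells over 14 genes, fibroblast markers to 133 to 295 CPM in tip-like and 181 to 423 CPM in other cells over 10 genes, and pericyte and smooth muscle markers to 93.9 to 159 CPM in tip-like and 181 to 388 CPM in other cells over 12 genes. Mast cell and blood progenitor markers, which matter because these cells also use Kit, summed to 9.40 to 20.1 CPM in tip-like and 13.3 to 44.0 CPM in other endothelial cells, with 6 to 8 of the 10 genes at 0 in tip-like sums. Haemoglobin and other erythroid genes varied widely between libraries, from 11.3 to 6154 CPM in tip-like and 124 to 7809 CPM in other endothelial cells, with 0 of 4 tested genes called by edgeR. The smooth muscle gene Tagln fell by 5.99. Interferon genes showed no common direction (3 of 19 higher and 4 lower), nor did 16 genes of hypoxia and glycolysis (5 higher and 3 lower). Over all tested genes 15.0% were higher and 14.0% lower. Of 18 endothelial transcription factors, 6 were higher, among them Bcl6b (0.81) and Erg (0.58), and 6 were lower, among them the flow-induced factors Klf4 (-0.93) and Klf2 (-0.68). Of 15 immediate early genes 5 were lower and 1 higher, and at matched depth 9 were lower. Of 7 tested imprinted genes other than Mest, Cdkn1c was called, at -1.13.

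Within tip-like cells, few genes differed between diets. Of 9094 genes tested with edgeR's quasi-likelihood test (mean count of at least 10), 2 were called (0.0220%) and 431 had an unadjusted p under 0.05. Timp4, an inhibitor of matrix metalloproteinases that lies opposite to Syn2 on the other strand of chromosome 6, was at 491 and 473 CPM in high_fibre tip-like cells, against 253 and 266 CPM in control_diet tip-like cells (log2 fold 0.90, SE 0.121, adjusted p = 0.0333). In other endothelial cells Timp4 was at 805 and 643 CPM in high_fibre and 473 and 529 CPM in control_diet libraries, not called at a log2 fold of 0.53 (adjusted p = 0.434) among 11870 genes of which 2 were called (0.0168%), and the 2 diet differences were not called as different (interaction adjusted p = 0.430). Nts, the neuropeptide neurotensin, was at 18.1 and 17.5 CPM in high_fibre and 54.5 and 55.4 CPM in control_diet tip-like cells (log2 fold -1.62, SE 0.221, adjusted p = 0.0333).

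Neither call was stable. Without barcodes found in another library, the adjusted p by edgeR was 0.570 for Timp4 and 0.229 for Nts, and both missed the threshold without high_fibre replicate 1, without control_diet replicate 1 or without control_diet replicate 2, with adjusted p of 0.0651 to 0.154. Nts also missed it without high_fibre replicate 2 (0.0596) and without cycling cells (0.229), both by edgeR, and with DESeq2 (0.123), where Timp4 kept its call. The Nts values rested on few cells. Nts UMIs numbered 21 and 25 in high_fibre and 109 and 112 in control_diet tip-like cells, the 3 highest cells of each library held 42.9% and 56.0% of them in high_fibre and 44.0% and 72.3% in control_diet libraries, and cells with any Nts UMI were 8.33% and 7.56% in high_fibre and 12.1% and 9.60% in control_diet libraries. Timp4 UMIs were found in 60.6% and 70.3% of high_fibre and 60.4% and 73.4% of control_diet tip-like cells.

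The diet difference itself differed between tip-like and other endothelial cells for 2 of 8010 genes (0.0250%), both lower in tip-like cells. Nts had an interaction of -1.44 on the log2 scale (SE 0.233, edgeR adjusted p = 0.00067), with 63.4 and 98.0 CPM in high_fibre and 86.6 and 100.1 CPM in control_diet libraries of other endothelial cells. Cxcl9, an interferon-induced chemokine, was at 203 and 228 CPM in high_fibre and 257 and 290 CPM in control_diet tip-like cells, and at 129 and 145 CPM in high_fibre and 102 and 118 CPM in control_diet other endothelial cells, an interaction of -0.66 (SE 0.113, edgeR adjusted p = 0.00136). In neither class was the diet difference of Cxcl9 called. Both interactions were lost with DESeq2 (adjusted p = 1), without cycling cells (0.992, edgeR) and without high_fibre replicate 2 (0.80 for Nts and 0.0865 for Cxcl9, edgeR).

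**Figure D5:**
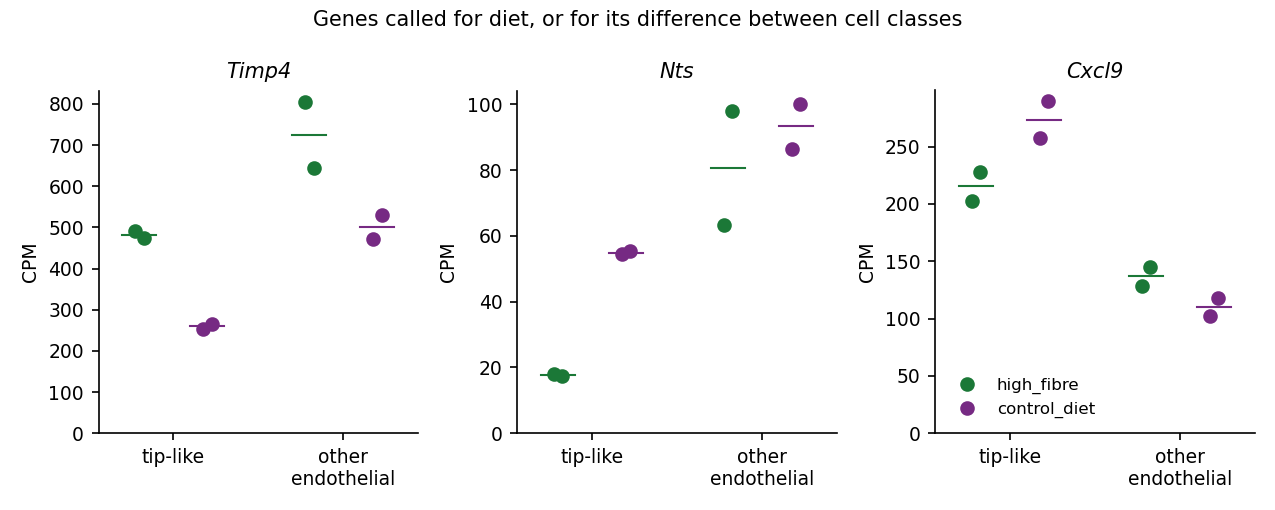
CPM of Timp4, Nts and Cxcl9 in each library (points) with group means (lines), in tip-like and other endothelial cells, high_fibre left of control_diet in each pair. Timp4 is at 491 and 473 CPM in high_fibre against 253 and 266 CPM in control_diet tip-like cells, Nts is at 18.1 and 17.5 CPM against 54.5 and 55.4 CPM, and Cxcl9 differs by diet in opposite directions in the 2 classes. The Cxcl9 diet difference was called in neither class.

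No list moved with diet by its calls in tip-like cells, where Timp4 was the single called member of any list. Of the marker genes that chose the cells, Apln, Mest, Pcdh17 and Trp53i11 overlapped between the groups, and Kit was at 158 and 132 CPM in high_fibre and 128 and 130 CPM in control_diet tip-like cells. Of 22 tip cell genes, 8 had both high_fibre libraries below both control_diet libraries and 2 above, beside 16.5% of all genes each way, with a median log2 fold of -0.17. Adm was at 148 and 108 CPM in high_fibre and 179 and 138 CPM in control_diet tip-like cells in this fit, not called at -0.32. Of 20 interferon genes, 9 lay below in both high_fibre libraries and 0 above, with a median of -0.22, and none was called. This was not particular to tip-like cells: in other endothelial cells 1 of 20 interferon genes had a log2 fold above 0, with a median of -0.30 and 0 called. The opposite split was seen in 13 capillary genes (6 above, 1 below, median 0.22), 16 genes of apelin, KIT, TIE, BMP and FGF signalling (6 above, 1 below, median 0.16) and 5 tested fibroblast markers (3 above, 0 below, median 0.60). All 12 heat shock genes and all 6 tested macrophage genes had a log2 fold above 0, with medians of 0.62 and 1.02 and 0 called. In other endothelial cells all 12 heat shock, all 10 tested macrophage and all 9 tested fibroblast genes were above 0 too. Their medians there were 0.53, 1.34 and 0.68, with 0 called. Heat shock genes summed to 18381 and 10258 CPM in high_fibre and 10908 and 9859 CPM in control_diet tip-like cells, so 1 library, high_fibre 1, stood above the rest. Fibroblast markers summed to 180 and 295 CPM in high_fibre and 172 and 133 CPM in control_diet tip-like cells. Macrophage markers summed to 334 and 284 CPM in high_fibre and 162 and 148 CPM in control_diet tip-like cells, and in other endothelial cells to 637 and 450 CPM in high_fibre and 208 and 154 CPM in control_diet libraries. Their part in the diet values was not tested. Cells with cell cycle UMIs were 27.4 ± 8.36% of tip-like cells in high_fibre and 32.0 ± 0.226% in control_diet hearts (SD, n = 2 each), a difference within the spread of the high_fibre libraries.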

How the data were processed

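UMI counts per gene and barcode were used as deposited. Per the submitters' processing notes they came from Cell Ranger 3.1.0 with mm10, and the labels name the 10x 3′ v2 kit. The 4 libraries were grouped by the labels. Cells were gated as described, UMIs were summed per library and class, and 16 gate genes were left out of the tests. edgeR 4.0.16 (R 4.3.3, TMM, robust quasi-likelihood fit) gave log2 folds, with Benjamini-Hochberg adjustment over all tested genes at 0.05. CPM are TMM-normalised. Named genes were the 12 called genes that rose most and the 12 that fell most (mean of at least 30 CPM, 1 direction in 4 of 4 libraries), and examples from lists. The members and lists were chosen with earlier results of these data known. Doublets were scored by simulated neighbours and kept. Repeat numbers were not used to pair libraries. Coordinates, 1-based, are from GENCODE M21 on GRCm38 (mm10). DESeq2 1.42.0, other gates, thinning, matched depth, left-out libraries and left-out barcodes were tried as alternatives. Intervals cover counting error only. Tests were checked on simulated data.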

Additional observations from a re-analysis of the deposited data

Results flagged for a closer look

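Nts had a diet difference that differed between cell classes by the edgeR interaction test, with a log2 interaction of -1.44: it was lower in high_fibre than in control_diet tip-like cells (18.1 and 17.5 CPM against 54.5 and 55.4 CPM), while the libraries of other endothelial cells overlapped (63.4 and 98.0 CPM in high_fibre, 86.6 and 100.1 CPM in control_diet). Cxcl9 had an interaction of -0.66 by the same test, being lower in high_fibre tip-like cells and higher in high_fibre other endothelial cells than in their control_diet counterparts. In neither class was the Cxcl9 diet difference called. Both interactions were lost with DESeq2 and without cycling cells. Nts rested on few UMIs, 21 and 25 in high_fibre and 109 and 112 in control_diet tip-like cells.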

How the results depend on the processing

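Each high_fibre library had a smaller share of tip-like cells than each control_diet library under every gate, depth, doublet, sex and barcode alternative run. The difference, -5.49 points, ran from -6.92 to -4.07 with single libraries left out. The labels do not say what a repeat number shares and 2 pairs cannot settle it (r 0.142 between the groups over genes), so pairing stays here: with the replicate block the share differed by -3.82 points within repeat 1 and -7.16 within repeat 2, and 3 genes were called for diet in tip-like cells, all higher in high_fibre, with Timp4 the 1 of the 2 calls without the block that was kept and Nts lost (edgeR adjusted p = 0.0792). Against other endothelial cells, 2316 genes were called, and 1376 with DESeq2, 863 after thinning, 1281 at matched depth, 1436 without cycling cells (an alternative chosen after seeing the data, as were the 2 barcode alternatives and the cells without vessel markers) and 1859 to 2080 with single libraries left out. For diet in tip-like cells, 2 genes were called, and 1 with DESeq2, 38 without a low filter, 0 at 7 or more marker UMIs, after thinning or without barcodes found in another library (446, 209 and 334 genes at unadjusted p under 0.05, edgeR), and 0 to 23 with single libraries left out. In other endothelial cells 2 were called for diet, and 15 with DESeq2, 185 without a filter, 4 without doublets, 11 at 7 or more marker UMIs, 6 without cycling cells and 0 to 67 with single libraries left out. The interaction called 2, and 0 with DESeq2 (21 at unadjusted p under 0.05) or without cycling cells (352, edgeR), 4 without a filter, 10 at 4 or more marker UMIs and 3 to 22 with single libraries left out. The cycling difference was 16.7 to 20.7 points with single libraries left out. Directions turned for Kdr (0.12 after thinning, 0.15 at matched depth, 0.054 without cycling cells, and -0.038 to 0.016 with single libraries left out), and for Vegfc (0.41) and Aplnr (-0.20) against cells without vessel markers. Of the other 572 values of named class genes under alternatives, 542 kept direction and call, 20 lost and 10 gained the call. The causes were not tested. With 2 libraries a group and 132 to 207 tip-like cells in each, the precision of the diet values is limited.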
